A study of Mus musculus with 50 samples.

Results

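The genes described here are the 6 neighbours of *Drd2* on mouse chromosome 9, namely *Usp28*, *Zw10*, *Tmprss5*, *Ankk1*, *Ttc12* and *Ncam1*, out of 24552 genes in the count tables. They were chosen by symbol, with *Drd2* itself left out, after *Ttc12* and *Ankk1* had been seen to differ between D1 Con and D2 Con IPs and between the inputs of the lines. Values of those comparisons are therefore given as a description, with no test. They carry a standard error or, for *Ankk1*, an interval of counting error that leaves out the spread between libraries. All 6 were listed in both count tables. In NAc tissue of male C57BL/6 mice (C57BL/6J by the study's methods), 28 IP libraries and 18 input libraries were sequenced. RT; D1-Cre mice gave 13 IPs (4 Con, 5 Sus and 4 Res) and RT; D2-Cre mice gave 15 IPs (5 of each), and each line gave 9 inputs (3 of each). Con mice were not defeated, and Sus and Res mice were sorted by a social interaction test after up to 10 days of social defeat. All these mice were 8 to 12 weeks old, each library pooled 2 mice, and all carried the RiboTag (RT) allele, an HA-tagged ribosomal protein that is made in cells with Cre. A separate table held 4 further IPs of undefeated RT; Sirt1-floxed; D1-Cre males, whose age the labels do not give.

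Both Cre lines are hemizygous transgenes carried on bacterial artificial chromosomes, D1-Cre as line FK150 and D2-Cre as line ER44. Each condition thus rests on a single transgenic line, and how much DNA around *Drd1* or *Drd2* the transgenes hold is not given in the sources used here. In the IPs, the cell type and the transgenic line change together and cannot be told apart. The inputs hold RNA of all cells of the tissue and so compare the lines over mixed cells.

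*Drd2* encodes the dopamine D2 receptor, an inhibitory G-protein coupled receptor by which dopamine acts on D2-MSNs, and which also acts in cholinergic interneurons. The genes beside it have unrelated roles. *Ankk1* encodes a protein kinase with ankyrin repeats and *Ttc12* a tetratricopeptide repeat protein needed to build the dynein arms of motile cilia. *Ncam1* encodes a neural cell adhesion molecule, *Tmprss5* a membrane-bound serine protease, *Zw10* a protein of kinetochores and of vesicle transport, and *Usp28* a deubiquitinase.

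In the GENCODE vM21 annotation of GRCm38 (mm10), *Drd2* occupies chr9:49340627-49408177 on the plus strand. On its 3′ side lie 3 minus-strand genes, *Ankk1* (chr9:49415194-49427021), *Ttc12* (chr9:49436963-49486225) and *Ncam1* (chr9:49502136-49798925), which face *Drd2* with their 3′ ends. Gaps of 7.0 kb separate *Drd2* from *Ankk1*, 9.9 kb *Ankk1* from *Ttc12*, and 15.9 kb *Ttc12* from *Ncam1*. On the 5′ side, the nearest annotated gene among those counted, *Gm4894*, lies 60.0 kb away. The 3 members there are plus-strand genes that begin beyond a gap of 223.0 kb, *Tmprss5* (chr9:49081260-49117587), *Zw10* (chr9:49055613-49078775) and *Usp28* (chr9:48985375-49042517). An antisense gene, *Gm11149* (chr9:49518288-49572591, plus strand), lies inside *Ncam1*, and the strand setting of the counting is not given in the sources used here. No annotated member overlaps *Drd2* or another member.

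Promoter sequences of RefSeq (GRCm38.p6) are shown for *Ttc12*, the member on which the results turn, and for *Drd2*, the gene that the D2 line is named for. Each runs 5′ to 3′ on the strand of the gene, from 250 bases before the start to 50 bases after it, and capitals mark matches on either strand to the TATA box (TATAAA), the CCAAT box (CCAAT), the GC box of Sp1 (GGGCGG), the core of the cAMP response element (TGACG) or the core of the X-box of RFX factors (GTTGCC).
*Ttc12*, chr9:49486176-49486475, minus strand: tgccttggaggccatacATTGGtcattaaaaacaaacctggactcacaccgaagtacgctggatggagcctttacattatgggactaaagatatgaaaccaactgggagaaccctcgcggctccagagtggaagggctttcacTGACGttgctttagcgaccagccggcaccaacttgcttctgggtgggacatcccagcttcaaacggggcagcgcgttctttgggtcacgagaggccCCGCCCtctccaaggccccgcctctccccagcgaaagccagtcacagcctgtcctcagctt
*Drd2*, chr9:49340153-49340452, plus strand: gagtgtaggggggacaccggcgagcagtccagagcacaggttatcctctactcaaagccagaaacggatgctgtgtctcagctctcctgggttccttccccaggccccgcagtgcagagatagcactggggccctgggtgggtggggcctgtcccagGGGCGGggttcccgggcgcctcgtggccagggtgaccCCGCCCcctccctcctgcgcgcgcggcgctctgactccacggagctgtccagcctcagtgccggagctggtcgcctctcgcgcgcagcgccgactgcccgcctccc
The *Ttc12* promoter held 1 match to the CCAAT box, 1 to the GC box and 1 to the core of the cAMP response element, and the *Drd2* promoter held 2 matches to the GC box. These motifs are common. Of 32851 promoters of the same length, 37.4% held the CCAAT box, 35.7% the GC box and 20.8% the core of the cAMP response element. Neither window held the TATA box, found in 13.6% of promoters, or the X-box core, found in 12.5%. The GC content was 56.3% for *Ttc12* and 70.3% for *Drd2*, beside a median of 52.7%. RefSeq promoters were matched for 4 of the 6 members (*Usp28*, *Zw10*, *Tmprss5* and *Ttc12*). The starts used here are those of RefSeq, and the *Drd2* window ends before the *Drd2* start of the GENCODE annotation given above.

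Depth was 21591075 to 31009626 counts on genes in the IPs and 18384265 to 28179940 in the inputs. Levels are given in CPM, reads scaled to the size of each library with TMM factors. The receptor genes followed the labels of the IPs. *Drd1* reached 289.6 to 404.6 CPM in D1-IPs and 110.0 to 171.9 CPM in D2-IPs, and *Drd2* reached 80.0 to 124.7 CPM in D1-IPs and 299.4 to 389.7 CPM in D2-IPs. All 6 D1-MSN markers (*Drd1*, *Pdyn*, *Tac1*, *Chrm4*, *Ebf1* and *Isl1*) were called higher in D1-IPs, and all 6 D2-MSN markers (*Drd2*, *Adora2a*, *Penk*, *Gpr6*, *Gpr52* and *Sp9*) were called lower in D1-IPs, in Con, in Res and in Sus.

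In the IPs, *Ttc12* was the member with the clearest difference between the lines. In D1-IPs it had 0.963, 1.00, 1.12 and 0.709 CPM in the 4 Con libraries, 1.86, 1.20, 1.29 and 1.34 CPM in the 4 Res libraries, and 2.18, 1.72, 1.14, 1.27 and 0.937 CPM in the 5 Sus libraries. D2-IPs had 15.4, 14.7, 17.3, 12.8 and 15.9 CPM in Con, 17.7, 14.9, 15.7, 11.9 and 12.8 CPM in Res, and 13.7, 12.9, 14.4, 15.4 and 13.7 CPM in Sus. Every D2-IP was above every D1-IP, with the highest D1-IP at 2.18 CPM and the lowest D2-IP at 11.9 CPM. How many of all genes separated the IPs of the lines was not counted. The means were 1.29 ± 0.410 CPM (SD, n = 13) and 14.6 ± 1.67 CPM (SD, n = 15).

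The log2 fold change of *Ttc12* (D1 over D2) was -4.00 (SE 0.18) between Con IPs, which is 16.0-fold higher in D2 Con. In Res IPs it was -3.37 (SE 0.17), or 10.3-fold higher in D2 (edgeR quasi-likelihood test, adjusted p = 1.09e-14). In Sus IPs it was -3.28 (SE 0.16), or 9.71-fold higher in D2 (edgeR quasi-likelihood test, adjusted p = 8.45e-16). The difference thus exceeded the spread between libraries in defeated mice as well, whose IPs are not those of the Con comparison. These p-values are no independent check of the choice of *Ttc12*. Res and Sus inputs entered that choice too, and all 28 IPs share the same estimate of the spread. For *Drd2* itself the log2 fold change was smaller, at -1.77 (SE 0.09) in Con, -1.75 (SE 0.09) in Res and -1.94 (SE 0.08) in Sus.

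*Ankk1* was at the limit of detection. The 13 D1-IPs held 5 reads in all, 2 in D1 Con replicate 2, 2 in D1 Res replicate 1 and 1 in D1 Sus replicate 2, and none in the other 10 libraries. The 15 D2-IPs held 239 reads, 14, 16, 21, 16 and 10 in Con, 19, 12, 25, 18 and 8 in Res, and 17, 6, 25, 24 and 8 in Sus. Every D2-IP, with at least 6 reads, was above every D1-IP, with at most 2 reads. In CPM this was 0.631 ± 0.234 (SD, n = 15) in D2-IPs.

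Because the D1-IPs held so few reads of *Ankk1*, fold changes are given from summed counts with 95% intervals that cover counting error only. Over all IPs, *Ankk1* was 42.4-fold higher in D2 (17.9 to 131.7). The ratio was 35.6 in Con (9.53 to 299.5, from 2 against 77 reads), 31.3 in Res (8.40 to 262.9, from 2 against 82 reads) and 78.1 in Sus (13.6 to 3121, from 1 against 80 reads). *Ankk1* passed the filter on low counts in the IPs only through the D2 groups. Having passed through the group where it is high, it had to differ, so no fitted test of it is given.

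A gene was called between the IPs of the lines at an adjusted p under 0.05 together with more than 1.5-fold between the lines. Of the 14224 genes tested, 4.85% were called in either direction in Con IPs, 5.41% in Res IPs and 5.48% in Sus IPs. *Ttc12* was called in Res and in Sus, and *Ankk1* is left out of the count for the reason just given. Of the 4 other members, 0 were called in any of the 3 stress groups by edgeR or by DESeq2. Only *Usp28* was at an edgeR adjusted p under 0.05 in each, and it lay under the 1.5-fold limit. At that adjusted p alone, 1954, 2447 and 2468 of the 14224 genes passed in Con, Res and Sus IPs. Fewer expressing cells and less RNA per cell cannot be told apart in these pooled tissues.

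**Figure D1:**
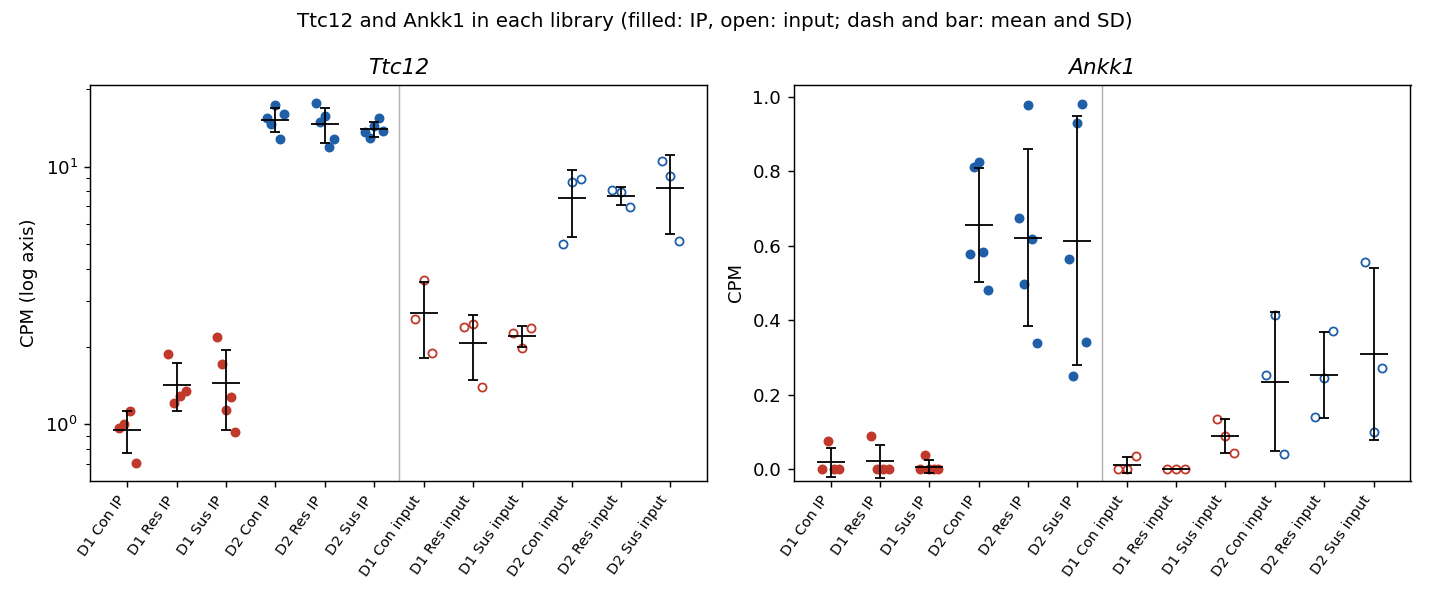
CPM of Ttc12 (left, log axis) and Ankk1 (right, linear axis) in each of the 28 IPs (filled) and 18 inputs (open) of the D1 line (red) and the D2 line (blue), with the mean and SD of each group. For Ttc12 all D2-line libraries lie above all D1-line libraries among the IPs and again among the inputs, whereas for Ankk1 they separate in the IPs and overlap in the inputs. The share of all genes that separate the lines was not counted.

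Markers of other cell types were also compared between the lines. The summed level of 5 cholinergic interneuron markers (*Chat*, *Slc18a3*, *Slc5a7*, *Lhx8* and *Gbx2*) was 8.90 to 32.7 CPM in D1-IPs and 57.8 to 124.4 CPM in D2-IPs, with 3 of 5 called lower in D1 in each stress group and none at 0 in either set. In the inputs that sum was 40.5 to 87.4 CPM in the D1 line and 44.2 to 121.98 CPM in the D2 line. None of the 5 was called between the inputs by edgeR or by DESeq2, with 0 at an unadjusted p under 0.05, beside 710 of 15063 genes. Against input, 2 of the 5 were called higher and 1 lower in D2-IPs, and 0 higher and 4 lower in D1-IPs. Over all genes, 43.6% and 43.0% were called in these comparisons. The part of these cells in the difference of *Ttc12* and *Ankk1* was not tested. Markers of ependymal cells and motile cilia, where *Ttc12* acts, summed to 17.8 to 23.2 CPM in D1-IPs and 18.8 to 27.0 CPM in D2-IPs, and 0 of the 5 tested were called there in any stress group.

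The next comparison set the inputs of the lines against each other, to ask whether the line shows without the IP. *Ttc12* was again lower in the D1 line. D1-line inputs had 2.57, 3.63 and 1.88 CPM in Con, 2.38, 2.45 and 1.40 CPM in Res, and 2.26, 1.97 and 2.37 CPM in Sus. D2-line inputs had 5.01, 8.70 and 8.91 CPM in Con, 8.14, 8.00 and 6.97 CPM in Res, and 10.5, 9.19 and 5.12 CPM in Sus. The lines did not overlap, since the highest D1-line input (3.63 CPM) was below the lowest D2-line input (5.01 CPM). How many of all genes separated the lines in the inputs was not counted, and this comparison entered the choice of *Ttc12*.

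The log2 fold change of *Ttc12* between the inputs (D1 over D2) was -1.76 (SE 0.17), or 3.39-fold higher in the D2 line, from means of 2.32 ± 0.610 CPM (SD, n = 9) and 7.84 ± 1.84 CPM (SD, n = 9). Within stress groups it was -1.49 (SE 0.28) in Con, -1.89 (SE 0.30) in Res and -1.91 (SE 0.29) in Sus. *Drd2* differed far less in the same libraries, with 78.2 ± 11.4 CPM in the D1 line and 98.6 ± 15.2 CPM in the D2 line (SD, n = 9 each). Its log2 fold change was -0.34 (SE 0.11, edgeR unadjusted p = 0.0079, adjusted p = 0.94). Within stress groups the value of *Drd2* was -0.29 (SE 0.19) in Con, -0.44 (SE 0.19) in Res and -0.28 (SE 0.19) in Sus. The summed level of the 6 D2-MSN markers was 819.3 to 1378 CPM in D1-line inputs and 913.4 to 1167 CPM in D2-line inputs, so it did not separate the lines. That of the 6 D1-MSN markers was 465.7 to 733.6 CPM and 493.2 to 621.1 CPM.

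*Ankk1* in the inputs totalled 7 reads in the D1 line, 0, 0 and 1 in Con, 0, 0 and 0 in Res and 3, 2 and 1 in Sus. The D2 line totalled 52 reads, 5, 8 and 1 in Con, 3, 7 and 8 in Res and 12, 2 and 6 in Sus. The summed ratio was 7.88 in favour of the D2 line (95% counting interval 3.57 to 20.6), but single libraries overlapped, and *Ankk1* did not pass the filter on low counts for a fit of the inputs.

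Among the inputs, 1 of the 5 members that passed the filter was called, *Ttc12*, beside 0.0133% of the 15063 genes tested, which is 2 genes. Nothing is read from that share, as this comparison entered the choice of the members. The other called gene, *Cldn23*, was named after its values were seen. It had a log2 fold change of 2.19 (SE 0.34), larger than that of *Ttc12* and in favour of the D1 line. The 4 other members tested had log2 fold changes of 0.08 (*Usp28*, SE 0.06), 0.02 (*Zw10*, SE 0.05), 0.27 (*Tmprss5*, SE 0.20) and -0.01 (*Ncam1*, SE 0.04), all smaller than 2 standard errors.

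Set against *Drd2* in the same library, *Ttc12* reads amounted to 1.34% ± 0.483 of *Drd2* reads in D1-IPs (SD, n = 13), 4.27% ± 0.498 in D2-IPs (SD, n = 15), 2.98% ± 0.823 in D1-line inputs and 7.94% ± 1.53 in D2-line inputs (SD, n = 9 each). This ratio was therefore higher in the D2 line than in the D1 line, and in each line higher in the input than in the IP. *Ankk1* reads summed to 4.35% of *Ttc12* reads in D2-IPs and to 3.34% in D2-line inputs. Per kilobase of annotated exon, the mean levels in D2-IPs ran from *Drd2* (134.8 CPM per kb) through *Ncam1* (61.3), *Usp28* (6.20), *Zw10* (4.11), *Ttc12* (3.21) and *Ankk1* (0.214) to *Tmprss5* (0.116 CPM per kb). In D1-IPs, *Ttc12* stood at 0.283 CPM per kb and *Ankk1* at 0.00533 CPM per kb, with the 4 other members at 62.5 (*Ncam1*), 4.89 (*Usp28*), 3.87 (*Zw10*) and 0.0886 (*Tmprss5*).

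IPs were compared with the inputs of their own line, which holds the line constant. In the D1 line, *Ttc12* was lower in IPs than in inputs, with a log2 fold change of -0.88 (SE 0.15), although single libraries overlapped. In the D2 line it was higher in IPs, with a log2 fold change of 0.90 (SE 0.11), and IPs (from 11.9 CPM) and inputs (up to 10.5 CPM) did not overlap. *Drd2* gained more in D2-IPs, by 1.80 on the log2 scale (SE 0.08), and 0.33 in D1-IPs (SE 0.08). The difference of the 2 values of *Ttc12* was -1.77 (SE 0.19). These values of *Ttc12* are given without a test because they rest on inputs and Con IPs that were used to choose the gene.

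*Ankk1* was 2.42-fold higher in D2-IPs than in D2-line inputs by summed reads (95% counting interval 1.78 to 3.33), and single libraries overlapped. In the D1 line, 5 reads in IPs against 7 in inputs gave a ratio of 0.450 with an interval from 0.113 to 1.65, so no difference could be seen at this depth. Of the 4 members other than *Ttc12* and *Ankk1*, 1 was called between IP and input in the D1 line, *Tmprss5*, beside 43.0% of 15404 genes. In the D2 line it was again 1 of 4, *Tmprss5*, beside 43.6%. How many of all genes had no overlap between IP and input was not counted. For the line difference of IP against input 0 of the same 4 members were called by edgeR or by DESeq2, beside 7.58% of genes. Only *Usp28* (log2 value -0.43, SE 0.08) was at an edgeR adjusted p under 0.05, and it lay under the 1.5-fold limit. At that adjusted p alone, 3911 of the 15404 genes passed.

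**Figure D2:**
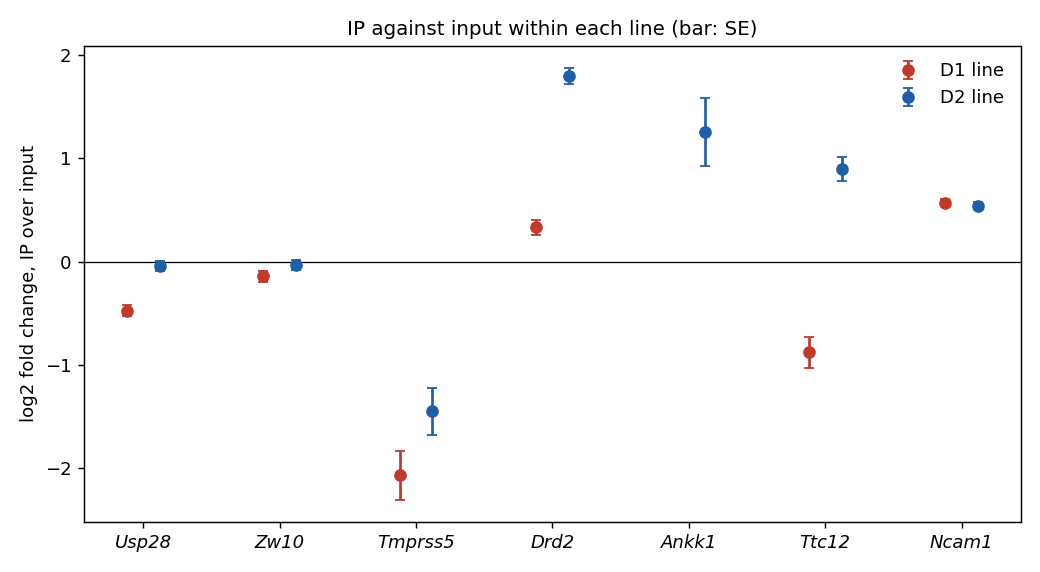
Log2 fold change of IP over input within the D1 line (red) and the D2 line (blue) for the 6 members and Drd2, in chromosomal order, with the standard error as a bar. Ttc12 lies at -0.88 in the D1 line and at 0.90 in the D2 line, while Ncam1 lies close together in both (0.57 and 0.54). Ankk1 is drawn for the D2 line alone, as a fitted value with no test.

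*Usp28*, which removes ubiquitin from proteins, was slightly lower in D1-IPs. It had 25.4 to 34.9 CPM (median 28.5, n = 13) in D1-IPs and 31.7 to 42.5 CPM (median 35.1, n = 15) in D2-IPs, and the lines overlapped. The log2 fold change was -0.40 (SE 0.08) in Con, -0.41 (SE 0.08, edgeR adjusted p = 0.00077) in Res and -0.29 (SE 0.08, edgeR adjusted p = 0.0085) in Sus, below the 1.5-fold limit each time. A fit of the Sus IPs alone gave an adjusted p of 0.059. In inputs, *Usp28* had 36.0 to 42.6 CPM in the D1 line and 30.4 to 40.9 CPM in the D2 line. Against input it was lower in D1-IPs (log2 fold change -0.47, SE 0.05, edgeR adjusted p = 1.03e-10), with no overlap, and in the D2 line the value was -0.04 (SE 0.05).

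*Zw10*, a kinetochore protein, had 13.7 to 17.97 CPM in D1-IPs, 13.6 to 19.6 CPM in D2-IPs, 15.2 to 18.9 CPM in D1-line inputs and 13.0 to 17.8 CPM in D2-line inputs. These ranges overlapped throughout, and the log2 fold change between the IPs of the lines was 0.03 (SE 0.09) in Con, -0.17 (SE 0.09, edgeR adjusted p = 0.19) in Res and -0.16 (SE 0.08, edgeR adjusted p = 0.22) in Sus. Against input it was lower in D1-IPs by a small amount (log2 fold change -0.14, SE 0.05, edgeR adjusted p = 0.012), and the value in the D2 line was -0.03 (SE 0.05, adjusted p = 0.54).

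*Tmprss5*, the serine protease, had few reads in the IPs of both lines. IP libraries held 3 to 17 reads, or 0.116 to 0.557 CPM in the D1 line and 0.107 to 0.708 CPM in the D2 line, and inputs held 0.676 to 1.63 CPM and 0.673 to 1.22 CPM. It was lower in IPs than in inputs, by 2.07 on the log2 scale in the D1 line (value -2.07, SE 0.24, edgeR adjusted p = 1.71e-10) and by 1.45 in the D2 line (value -1.45, SE 0.23, edgeR adjusted p = 2.59e-07). Between the IPs of the lines its log2 fold changes were -0.13 (SE 0.49) in Con, -0.11 (SE 0.44, edgeR adjusted p = 0.90) in Res and -0.85 (SE 0.44, edgeR adjusted p = 0.20) in Sus. Glial and vascular markers were also lower in IPs in both lines, with 6 of 6 astrocyte, 6 of 6 oligodendrocyte, 6 of 6 microglia and 4 of 4 endothelial markers called and none at 0. The astrocyte markers summed to 47.6 to 95.8 CPM in D1-IPs, 37.9 to 64.2 CPM in D2-IPs, 801.4 to 1010 CPM in D1-line inputs and 791.1 to 927.6 CPM in D2-line inputs, and the oligodendrocyte markers to 494.0 to 785.5, 402.9 to 654.7, 3464 to 5398 and 3954 to 5278 CPM. The part of these cells in the change of *Tmprss5* was not tested.

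*Ncam1*, which lies 15.9 kb from *Ttc12*, was the most abundant member, and its levels overlapped between the lines. It had 488.9 to 579.8 CPM in D1-IPs and 471.7 to 592.3 CPM in D2-IPs, and 338.4 to 387.5 CPM and 335.7 to 431.2 CPM in the inputs. The log2 fold change between lines was -0.02 (SE 0.05) in Con IPs, 0.02 (SE 0.05, edgeR adjusted p = 0.82) in Res IPs and 0.03 (SE 0.05, edgeR adjusted p = 0.71) in Sus IPs. In each line *Ncam1* was higher in IPs than in inputs with no overlap, 1.48-fold in the D1 line (edgeR adjusted p = 2.52e-18) and 1.45-fold in the D2 line (edgeR adjusted p = 6.32e-18). Both values sit just under the 1.5-fold limit. Leaving out D1 Con IP replicate 2, D1 Sus IP replicate 3, D1 Res input replicate 2 or D1 Sus input replicate 1 moved the log2 fold change of the D1 line to 0.59 to 0.60, past the limit. Leaving out D2 Con IP replicate 2, D2 Sus IP replicate 3, D2 Con input replicate 3 or D2 Sus input replicate 1 did the same in the D2 line (0.59 to 0.62). Without the filter on low counts the value of the D1 line was 0.61, also past the limit.

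**Figure D3:**
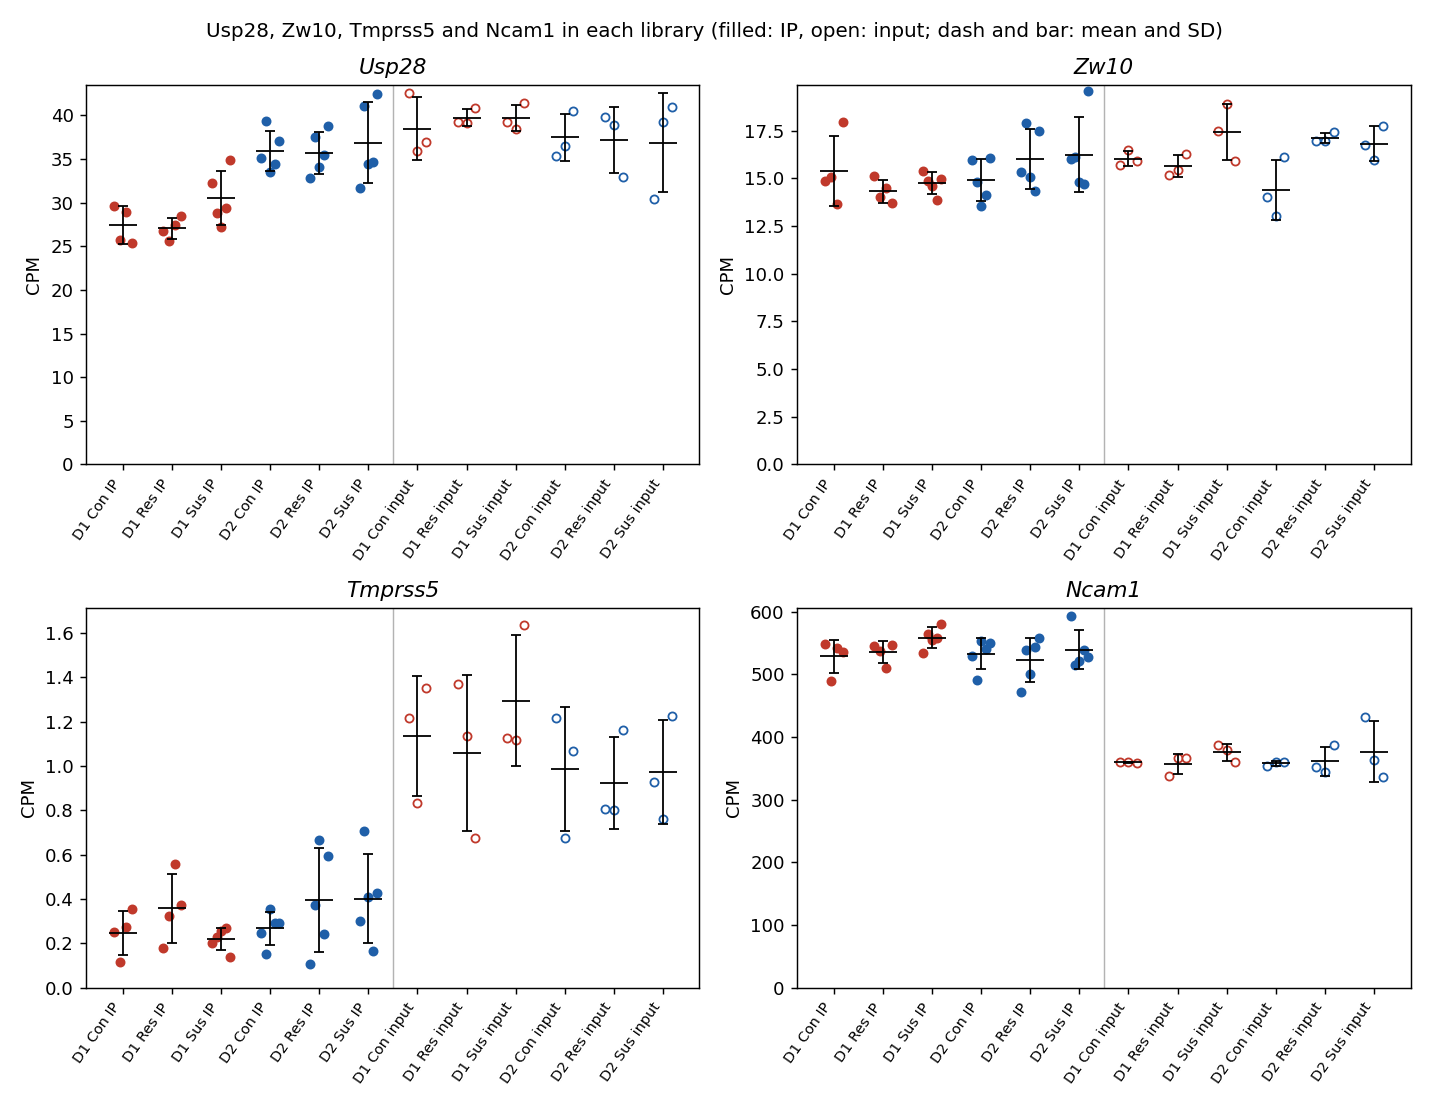
CPM of Usp28, Zw10, Tmprss5 and Ncam1 in each IP (filled) and input (open) of the D1 line (red) and the D2 line (blue), with the mean and SD of each group. The lines overlap in all 4 panels, among IPs and among inputs. Ncam1 is higher in IPs than in inputs with no overlap in either line, and Tmprss5 and Usp28 are lower in IPs with no overlap in the D1 line alone. Over all genes, 43.0% were called between IP and input in the D1 line and 43.6% in the D2 line. The share of all genes with no overlap was not counted.

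The position of the genes was then set against the line difference. Within 1000 kb of either end of *Drd2*, 19 annotated genes were in the table and 14 were tested in the IPs. Leaving aside *Drd2* and the members, the genes called there were *Htr3a* alone in Con and in Sus, and none in Res. Of the 7 tested genes that are neither members nor *Drd2*, 1, 2 and 2 were at an unadjusted p under 0.05 in Con, Res and Sus IPs. Over all 14224 genes tested, 3812, 4272 and 4213 were at that level. *Htr3a* (named after its values were seen), a serotonin-gated channel subunit that lies 429.5 kb from *Drd2*, was higher in D1-IPs (log2 fold change 1.37, SE 0.32, in Con). Of the 12 genes in the window that are neither members nor *Drd2*, 6 were tested in the inputs, and 0 were called by edgeR or DESeq2. Of these 6, 1 was at an unadjusted p under 0.05, beside 710 of the 15063 genes tested. The log2 fold changes of these 6 genes in the inputs ran from -0.29 to 0.06. The nearest counted gene on the 5′ side, *Gm4894* at 60.0 kb, had too few reads to be tested.

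The window around *Drd1* was compared as the counterpart for the D1 line. It held 27 genes in the table. Among the inputs, 0 of 23 tested there were called by edgeR or DESeq2, and log2 fold changes ran from -0.31 to 0.48. Of these 23, 1 was at an unadjusted p under 0.05, beside 710 of the 15063 genes tested. Among the IPs, *Sfxn1*, the nearest counted gene to *Drd1* on that side at 16.2 kb and a mitochondrial serine transporter, was higher in D1 (log2 fold change 0.60 in Con, 0.62 in Res and 0.62 in Sus). In the inputs its value was -0.03 (SE 0.03). *Sncb*, a synuclein gene at 703.2 kb named after its values were seen, was called in Con and in Sus (0.61 and 0.66). On the other side the nearest counted gene, *4930555G21Rik*, had too few reads to be tested.

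Social defeat was compared within each line. In D1-IPs, *Ttc12* had a log2 fold change of 0.60 (SE 0.21) between Sus and Con, and of 0.57 (SE 0.22) between Res and Con. The D1 Con libraries are the baseline of both, and *Ttc12* was chosen for being low in them, so these values are a description. The 4 Con libraries (0.709 to 1.12 CPM) lay below the 4 Res libraries (1.20 to 1.86 CPM) and overlapped the 5 Sus libraries (0.937 to 2.18 CPM). In reads the Con libraries held 18 to 33 and the Sus libraries 20 to 54. Neither value passed the adjustment over all genes (edgeR adjusted p = 0.86 and 1.00). Without D1 Con IP replicate 4 the value between Res and Con was 0.46, and without D1 Res IP replicate 1 it was 0.42. Between Sus and Res, which does not use the Con libraries, it was 0.03 (SE 0.20, edgeR adjusted p = 1.00).

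At an unadjusted p under 0.05, 1 of 6 members was called between Sus and Con in D1-IPs, beside 5.24% of 14224 genes. Between Res and Con it was 1 of 6, beside 2.05%, both times *Ttc12*, from which nothing is read. *Ankk1* is among the 6 but held 5 reads over all D1-IPs, too few for a call there to be likely. In fits of only the libraries compared, neither call of *Ttc12* was made, and that between Res and Con was lost without D1 Con IP replicate 4 or D1 Res IP replicate 1. Between Sus and Res in D1-IPs 0 of 6 were called by edgeR, beside 4.08%, while DESeq2 called 1, *Usp28*, which had an unadjusted p of 0.053 in edgeR and of 0.048 in DESeq2. *Usp28* had a log2 fold change of 0.15 (SE 0.08) between Sus and Con, with an unadjusted p of 0.084 that fell to 0.039 without D1 Con IP replicate 1 and to 0.038 without D1 Sus IP replicate 3. In D2-IPs 0 of 6 members were called by edgeR or by DESeq2 between Sus and Con, beside 3.60%, between Res and Con, beside 2.94%, and between Sus and Res, beside 1.62%. The values of *Ttc12* there were -0.12 (SE 0.13), -0.06 (SE 0.13) and -0.06 (SE 0.13).

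The last comparison used the 4 libraries labelled Sirt1-KO and the 4 D1 Con IPs, whose counts are the same in both tables. *Sirt1* held 432, 502, 415 and 220 reads in the libraries labelled Sirt1-KO and 387, 453, 458 and 384 in D1 Con, with a log2 fold change of -0.10 (SE 0.13, edgeR adjusted p = 0.77). Counts per gene do not show whether the floxed exons were lost. *Ttc12* had 27, 25, 39 and 28 reads in the libraries labelled Sirt1-KO and 27, 26, 33 and 18 in D1 Con (log2 fold change 0.24, SE 0.27, edgeR adjusted p = 0.71), and *Ankk1* had 1, 0, 0 and 2 reads. Of the 4 members tested (*Usp28*, *Zw10*, *Ttc12* and *Ncam1*), 0 were called by edgeR or DESeq2, beside 0.705% of 13626 genes in edgeR. At an unadjusted p under 0.05 in edgeR were 0 of these 4, beside 2267 of the 13626 genes. *Tmprss5* and *Ankk1* did not pass the filter.

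The genes whose log2 CPM ran most like that of *Ttc12* over the 46 IP and input libraries were *Mdfic* (Pearson's r = 0.87), *Tacr1*, the substance P receptor (0.87), and *Ndnf* (0.85). For *Ankk1* they were *Ndnf* (0.84), *Mdfic* (0.81) and *Drd2* (0.79). All are lower in D1 Con than in D2 Con IPs, with log2 fold changes from -1.77 to -3.23, so the split of the IPs by line enters these values. Among the 18 inputs alone, which also hold both lines, r with *Ttc12* was 0.30 for *Mdfic*, -0.0025 for *Tacr1* and 0.43 for *Ndnf*. The log2 fold changes of these genes between the inputs were -0.09, 0.10 and -0.92, and none of them was called there. Within the D2 line, r of *Ttc12* was 0.33 with *Drd2* and 0.50 with *Ankk1* over the 15 D2-IPs, and 0.70 and -0.08 over the 9 D2-line inputs.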

How the data were processed

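RNA-seq was analysed for 50 libraries of NAc tissue, assigned to groups by their deposited labels. The deposited values are raw counts per gene symbol, made by the authors from stranded poly-A libraries with cutadapt, STAR (mm10) and HTSeq; versions, the annotation and the strand setting are not given in the sources used here. Entries that name no gene held 18.02 to 28.3% of reads in IPs, 35.9 to 40.0% in inputs and 19.2 to 23.8% in the libraries labelled Sirt1-KO, and were left out. In the first table, 2 columns matched no sample description used here and were not used, and 5 symbols repeated in the Sirt1-KO table were taken once. The members, lists and comparisons were chosen with earlier results of these data known, and the motifs and the per-kilobase levels were added after the data were seen. A further gene of the cholinergic marker list is not reported here. The named genes are the 6 members, *Drd2*, *Drd1* and *Sirt1*, the called or nearest counted genes within 1000 kb of *Drd2* or *Drd1*, and for *Ttc12* and *Ankk1* the 3 most correlated genes outside the members.

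The counts were fitted in edgeR 4.0.16 (R 4.3.3) and tested by quasi-likelihood, with TMM factors, robust dispersions and filterByExpr (minimum count 10, minimum total 15). Separate models, with a mean for each group, covered the 28 IPs (14224 genes), the 18 inputs (15063), all 46 libraries (15404) and the 8 libraries of the Sirt1-KO table (13626). P-values were adjusted by Benjamini-Hochberg over all genes of a model. Line, IP and Sirt1-KO comparisons were called at an adjusted p under 0.05 together with more than 1.5-fold, stress comparisons at an unadjusted p under 0.05. P-values measure the spread between pools of 2 mice. Sequencing sets and stress cohorts are not given per library and could not be entered. Intervals of summed counts are exact conditional binomial. The programs were tested on simulated data. Alternatives were RLE factors, no filter, DESeq2 1.42.0, only the libraries compared, a replicate block, each library left out in turn, and, added later, dispersions without the robust option. Figures were drawn with matplotlib 3.10.9.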

Additional observations from a re-analysis of the deposited data

Results flagged for a closer look

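In 42 groups of 4 to 10 libraries, 3 values of a member stood apart from the rest of their group by Dixon's ratio. Chance alone gives about 1 in 20 for values that vary continuously. All 3 values are *Ankk1* in a D1-IP group whose other libraries held no read, with 0.0773 CPM in D1 Con IP replicate 2, 0.0888 CPM in D1 Res IP replicate 1 and 0.0382 CPM in D1 Sus IP replicate 2, from 2, 2 and 1 reads. In such a group the ratio is at its maximum whenever a single library holds any read, so the rate of 1 in 20 does not apply.

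For *Ttc12*, the log2 fold change between Sus and Con in D1-IPs minus that in D2-IPs was 0.72 (SE 0.24), and between Res and Con it was 0.63 (SE 0.25). Both were singled out at an unadjusted p under 0.05, and neither passed the adjustment over all genes (edgeR adjusted p = 1.00 for both). Each equals the line difference in defeated mice less that in Con mice, and *Ttc12* was chosen for a large line difference in Con, so that choice favours values of this sign. Both also share the D1 Con and D2 Con libraries. The difference of IP against input between the lines was -1.77 for *Ttc12*, a value that joins comparisons used to choose the gene.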

How the results depend on the processing

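Between the IPs of the lines *Ttc12* was called under every alternative listed under processing in Res (log2 fold changes from -3.52 to -3.29) and in Sus (from -3.47 to -3.17). In the comparisons used to choose it, its values ran from -4.09 to -3.89 in Con IPs and from -1.85 to -1.69 in inputs. No value of a member reversed while called. A count of called members changed by over 1.5 times in these cases. In fits of only the libraries compared, it was 1 in place of 2 for D1 against D2 in Sus IPs, where *Ankk1*, counted here with *Ttc12*, no longer passed the filter, 0 in place of 1 for Sus against Con and for Res against Con in D1-IPs, and 1 in place of 0 for Sus against Res in D1-IPs. The last count was also 1 with RLE factors, without the filter and with DESeq2. With each library left out in turn it ran from 1 to 2 for Sus against Con (2 without D1 Con IP replicate 1 or D1 Sus IP replicate 3), from 0 to 1 for Res against Con (0 without D1 Con IP replicate 4 or D1 Res IP replicate 1) and from 0 to 1 for Sus against Res in D1-IPs (1 without D1 Res IP replicate 4 or D1 Sus IP replicate 2, 3 or 4). The cause was not tested. Of 1110 values of single members with a library left out, 1014 kept sign and call, and 80 changed sign while under the threshold both times.

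Called genes over all genes moved by over 1.5 times in the inputs, from 2 to 10 with DESeq2, 5 with the replicate block, 4 without the robust option, and 1 to 4 with a library left out (4 without D1 Con input replicate 2, and 1, which is *Ttc12*, without D1 Res input replicate 1 or 2, D1 Sus input replicate 2 or any of the 9 D2-line inputs). Against D1 Con, Sirt1-KO counts went from 96 to 223 with DESeq2 and 567 with the block, and from 37 to 249 with a library left out (37 and 45 without D1 Con IP replicates 3 and 4, 42, 51 and 249 without Sirt1-KO replicates 3, 4 and 5). Stress counts moved from 292 to 461 (Res against Con in D1-IPs) and from 230 to 432 (Sus against Res in D2-IPs) without the filter, from 418 to 675 with the block (Res against Con in D2-IPs), and to 470 from 745, 473 from 292 and 521 from 230 without D1 Con IP replicate 1, D1 Res IP replicate 3 and D2 Res IP replicate 5.

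Groups share replicate numbers in the titles, but samples with the same number did not deviate together (mean correlation of deviations 0.05 among IPs and -0.01 among inputs), and an IP correlated best with the input of its own number for 5 of 18 inputs. With the replicate block, 79 of 79 values of members kept sign and call, and the log2 fold change of *Ttc12* between the lines was -3.39 in Res IPs and -3.30 in Sus IPs. Depth limits *Ankk1* and *Tmprss5*, which rest on at most 25 and 38 reads a library.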
